A study of Mus musculus with 6 samples.

Results

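Wnt proteins are secreted lipid-modified ligands that skin uses to build hair follicles and to pattern the dermis, and the genes described here are those of the ligands, their receptors and their extracellular regulators, measured in mouse skin before and after wounding. The set was defined by gene symbol: every gene with a single symbol in the array annotation that begins with Wnt, Fzd, Sfrp, Dkk or Rspo followed by a digit, together with Wif1, Frzb, Axin2, Lrp5 and Lrp6. This gave 47 of 19938 genes. They comprise 19 Wnt ligands, 10 Frizzled receptors, the 2 co-receptors Lrp5 and Lrp6, 10 secreted antagonists (Sfrp1, Sfrp2, Sfrp4, Sfrp5, Frzb, Wif1 and Dkk1 to Dkk4), 4 R-spondins, the feedback target Axin2, and Fzd10os, a long non-coding RNA gene next to Fzd10 that the symbol rule takes in and that encodes no receptor. Each gene was represented by its brightest probe set. Only Wnt4 had 2 probe sets, and the other one gave lower values on all 4 wound arrays than on both intact arrays, as the one used did.

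Total RNA of full-thickness skin from male inbred BALB/c mice, an albino strain, aged 5 to 6 weeks was measured on Affymetrix mouse gene arrays in 3 groups of 2: unwounded skin, wounds taken after 1 day and wounds taken after 4 days. Under anaesthesia, wounded mice had been shaved on the back, disinfected with ethanol and given 2 punch wounds of 4 mm that spared the fascia. The 8 mm biopsies took in surrounding skin. By these punch sizes a fresh wound would make up 25% of the biopsy area, and its share when the biopsy was taken was not measured here. The labels name no altered genotype and no agent under test, and do not state whether the mice that gave intact skin had been shaved. The labels name the samples of a group biological replicates without stating if RNA was pooled over animals, so n counts arrays and the p-values measure the spread between these arrays.

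A Wnt ligand binds a Frizzled receptor together with Lrp5 or Lrp6. In the canonical branch this stabilises beta-catenin, which enters the nucleus and acts with transcription factors of the TCF and LEF family, whereas other branches act on cell polarity and calcium without beta-catenin. Secreted Frizzled-related proteins, Frzb and Wif1 bind the ligands, Dickkopf proteins such as Dkk1 block the co-receptors, and R-spondins raise the amount of receptor at the cell surface. In growing hair follicles the pathway drives the hair matrix and the hair-forming lineage.

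Values are log2 intensities, on which a difference of 1 is a 2-fold difference, and a gene was called changed at an adjusted p under 0.05 from limma with Benjamini-Hochberg adjustment over all 19938 genes. Lower quartiles of 5.29 to 5.37 and medians of 6.89 to 6.93 were close on the 6 arrays, and replicates correlated over genes at 0.9967 in intact skin, 0.9891 on day 1 and 0.9861 on day 4, where genes are not independent replicates. Markers of the tissue were bright: 8 basal keratinocyte markers averaged 10.83 to 11.09 and 12 fibroblast markers 9.98 to 10.80 on the 6 arrays. A list of 18 measured hair shaft and inner root sheath genes averaged 11.71 and 11.74 on the intact arrays, 8.51 and 6.31 on the day 1 arrays, and 10.21 and 6.62 on the day 4 arrays, so that replicate 2 of both wound groups stood below its partner. On each of those replicate 2 arrays 2 of the 18 lay under the lower quartile, against 0 on the others. In whole biopsies, fewer cells of a type and less RNA per cell cannot be told apart.

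Across the set, falls outnumbered rises on both days. On day 1, 17 of the 47 genes were lower (36.2%) and 2 were higher (4.26%) in wounds than in intact skin. Over all genes 29.3% were called, 14.6% lower and 14.7% higher. On day 4, 14 were lower (29.8%) and 3 higher (6.38%), and over all genes 26.9% were called, 12.1% lower and 14.8% higher. In that comparison the split over all genes was 2958 higher and 2413 lower, and it turned to 2574 higher and 3345 lower when arrays were centred on their medians. Among the members, median centring gave 2 higher and 17 lower. Between the days, 2 members were higher on day 4 than on day 1, against 1.09% of all genes (2.23% in both directions). Limma called 0 members lower, against 1.14% of all genes, and 2 members were lower at an unadjusted p under 0.05. The all-gene split of 217 higher and 227 lower was 195 and 310 under cyclic loess. In 23 of the 47 genes all 4 wound arrays lay below both intact arrays and in 4 all lay above, while over all genes these shares were 27.4% and 21.9%. Without intact skin replicate 1, 11 members were lower on day 1 and 5 on day 4, and without intact skin replicate 2, 12 and 7. Over all genes, leaving out these arrays took the lower calls of day 4 to 853 and 958. Day 1 wound replicate 2 and day 4 wound replicate 2 were the wound arrays poorest in hair transcript. Without the one or the other, calls of that day in both directions were fewer among the members and over all genes alike. Rises on both days were likewise fewer, among members and over all genes, without intact skin replicate 1 or replicate 2.

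**Figure D1:**
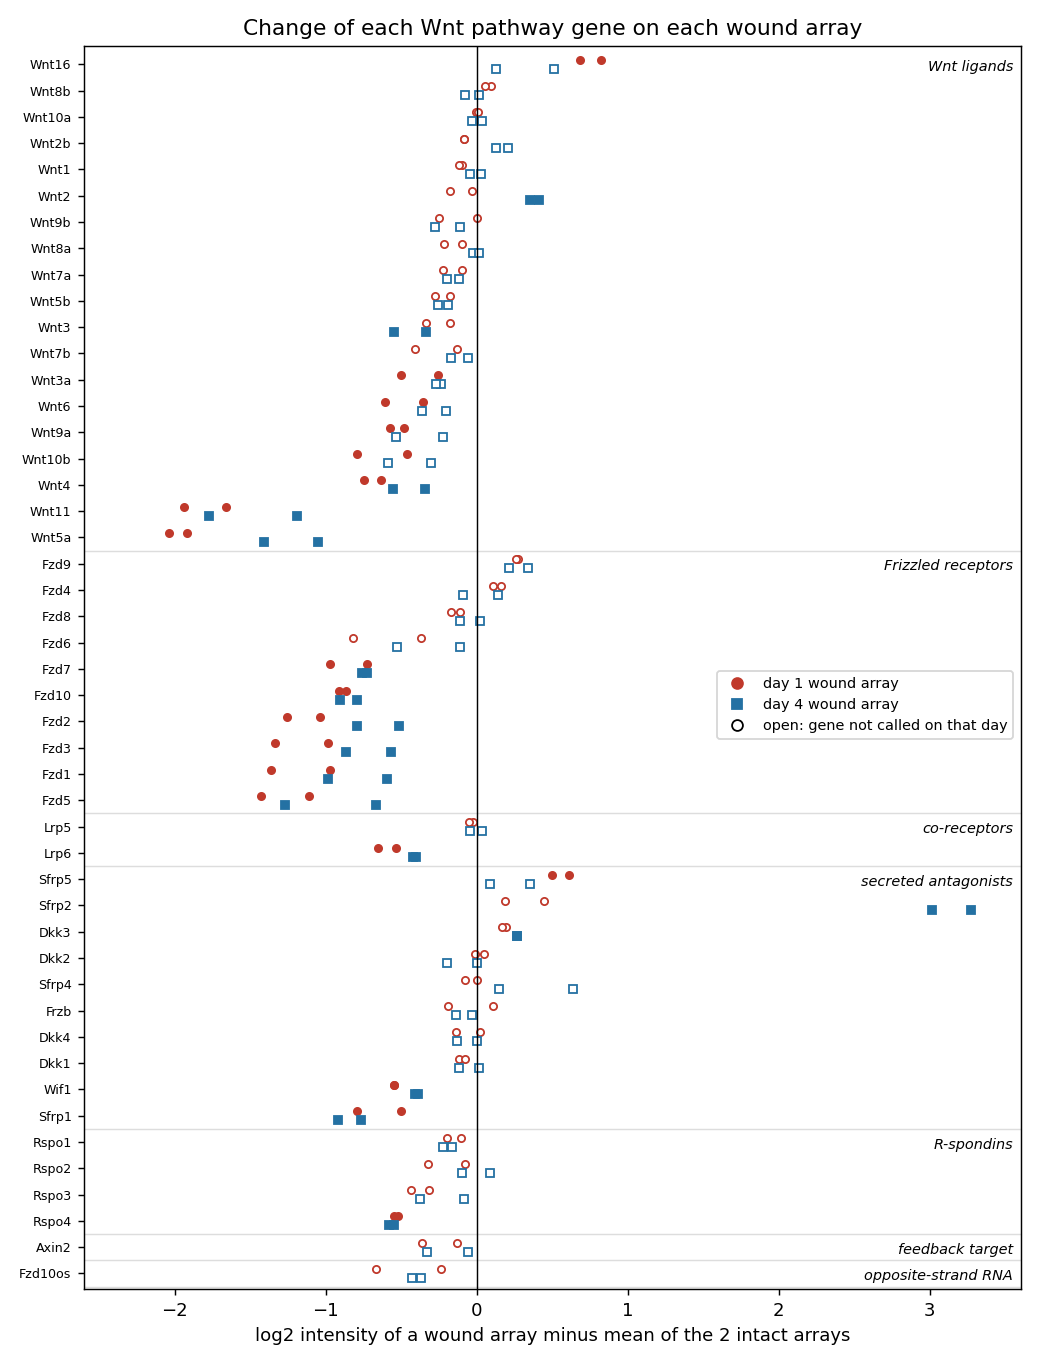
Each row is a gene, grouped by role, and each symbol is the log2 intensity of a wound array minus the mean of the 2 intact arrays (circles for day 1, squares for day 4, filled where limma called the gene on that day). Wnt5a, Wnt11 and 7 Frizzled genes lie to the left of 0 on all 4 wound arrays, and Sfrp2 lies near 3 on both day 4 arrays.

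RefSeq promoter windows (GRCm38.p6, 250 bases before to 50 after a start site, from the C57BL/6J reference and not from these BALB/c mice) were matched for 30 of the 47 genes and searched on both strands for the core letters CTTTGAA or CTTTGAT of TCF and LEF factors. A match was present in 3 of 33 windows (9.09%), one each of Dkk1, Wnt11 and Wnt5b, against 8.65% of all 32851 windows. A match is a description and no evidence of binding. The windows below are those of the ligand with a match and a fall, the antagonist with a match and no call, the receptor with the smallest p, the antagonist that rose most and the feedback target, with the matched letters in capitals.
Wnt11, chr7:98834862-98835161, plus strand: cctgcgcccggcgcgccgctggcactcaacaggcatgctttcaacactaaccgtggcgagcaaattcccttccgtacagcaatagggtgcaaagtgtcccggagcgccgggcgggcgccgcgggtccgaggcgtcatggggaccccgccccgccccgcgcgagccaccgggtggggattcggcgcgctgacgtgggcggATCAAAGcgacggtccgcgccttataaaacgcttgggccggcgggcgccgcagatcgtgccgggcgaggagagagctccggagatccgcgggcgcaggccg
Dkk1, chr19:30549447-30549746, minus strand: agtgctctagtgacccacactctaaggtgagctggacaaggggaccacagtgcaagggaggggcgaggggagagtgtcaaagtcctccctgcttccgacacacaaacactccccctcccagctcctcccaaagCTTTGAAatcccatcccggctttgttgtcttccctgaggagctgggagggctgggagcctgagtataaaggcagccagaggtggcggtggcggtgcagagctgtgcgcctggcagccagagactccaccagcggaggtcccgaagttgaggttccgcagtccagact
Fzd10, chr5:128600856-128601155, plus strand: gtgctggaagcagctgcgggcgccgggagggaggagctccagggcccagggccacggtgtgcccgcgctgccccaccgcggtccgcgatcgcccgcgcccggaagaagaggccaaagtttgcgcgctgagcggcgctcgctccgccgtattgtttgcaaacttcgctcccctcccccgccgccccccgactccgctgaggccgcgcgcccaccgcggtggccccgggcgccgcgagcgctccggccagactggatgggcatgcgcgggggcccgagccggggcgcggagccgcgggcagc
Sfrp2, chr3:83766071-83766370, plus strand: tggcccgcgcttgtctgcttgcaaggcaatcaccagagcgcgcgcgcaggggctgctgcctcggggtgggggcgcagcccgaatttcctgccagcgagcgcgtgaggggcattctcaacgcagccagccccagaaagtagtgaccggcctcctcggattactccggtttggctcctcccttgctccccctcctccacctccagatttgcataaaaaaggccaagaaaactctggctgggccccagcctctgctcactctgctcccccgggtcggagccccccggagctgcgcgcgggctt
Axin2, chr11:108920099-108920398, plus strand: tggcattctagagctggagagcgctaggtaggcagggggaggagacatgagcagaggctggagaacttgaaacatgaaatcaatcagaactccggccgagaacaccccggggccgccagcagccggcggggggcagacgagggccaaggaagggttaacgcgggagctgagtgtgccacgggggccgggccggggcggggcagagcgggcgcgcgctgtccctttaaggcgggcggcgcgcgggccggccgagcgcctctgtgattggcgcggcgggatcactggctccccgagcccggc
The match of Wnt11 begins 51 bases before the start site (-51) and that of Dkk1 117 bases before it (-117). The windows of Fzd10, Sfrp2 and Axin2 hold neither form of these letters.

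The ligands that fell most were Wnt5a and Wnt11, both best known for signalling that does not go through beta-catenin. Wnt5a had log2 intensities of 9.11 and 8.95 in intact skin, 6.99 and 7.11 in day 1 wounds, and 7.98 and 7.62 in day 4 wounds. All wound arrays lay below the intact ones, and both day 4 arrays lay above both day 1 arrays. The gene was 3.94-fold lower on day 1 than in intact skin (log2 change -1.98, SE 0.13, adjusted p = 2.32e-04) and 2.35-fold lower on day 4 (log2 change -1.23, SE 0.13, adjusted p = 0.00163). It ranked 178 among the falls of all 19938 genes on day 1. Wnt5a was 1.68-fold higher on day 4 than on day 1 (log2 change 0.75, adjusted p = 0.0496). That last call was lost under quantile normalization, cyclic loess, median centring and a fit of the wound arrays alone. It was kept without day 4 wound replicate 2 and lost without each of the other 5 arrays, with an adjusted p of up to 0.196. Wnt11 had log2 intensities of 8.55 and 8.99 in intact skin, 7.11 and 6.83 in day 1 wounds, and 7.58 and 7.0 in day 4 wounds. Its groups of wound arrays overlapped each other but not the intact pair. Wnt11 was 3.48-fold lower on day 1 (log2 change -1.80, SE 0.23, adjusted p = 0.00212) and 2.79-fold lower on day 4 (log2 change -1.48, adjusted p = 0.00547), and like the 2 falls of Wnt5a these calls held without any 1 array.

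Wnt4, a ligand of epidermis and many epithelia, had log2 intensities of 8.43 and 8.26 in intact skin, 7.71 and 7.60 in day 1 wounds, and 7.79 and 8.00 in day 4 wounds. It fell 1.61-fold on day 1 (adjusted p = 0.00436) and 1.37-fold on day 4 (adjusted p = 0.0242), and the day 4 call was lost without day 4 wound replicate 1 or either intact array. Wnt10b, a ligand of the hair follicle, had 7.19 and 7.21 in intact skin, 6.41 and 6.74 in day 1 wounds, and 6.90 and 6.61 in day 4 wounds. It was 1.54-fold lower on day 1 (adjusted p = 0.0181) and missed the threshold on day 4 (log2 change -0.445, adjusted p = 0.0605), which it passed under quantile normalization, median centring and a fit of these 2 groups alone. The falls of Wnt9a (1.44-fold, adjusted p = 0.015), Wnt6 (1.39-fold, adjusted p = 0.0263) and Wnt3a (1.3-fold, adjusted p = 0.0335) passed on day 1, and that of Wnt3 (1.36-fold, adjusted p = 0.0231) on day 4. Wnt3 and Wnt3a are classical activators of beta-catenin. Each of the calls of Wnt10b, Wnt9a, Wnt6, Wnt3a and Wnt3 was lost without either of the intact arrays. The day 1 call of Wnt3a was also lost under cyclic loess and in a fit of these 2 groups alone. On day 4 Wnt9a had a change of -0.38 (adjusted p = 0.0511) and passed under quantile normalization, median centring, the robust prior and without the dimmest 30% of genes.

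Single ligands went the other way on each day. Wnt16 had log2 intensities of 6.54 and 6.36 in intact skin, 7.13 and 7.27 in day 1 wounds, and 6.58 and 6.96 in day 4 wounds. It rose 1.68-fold on day 1 (log2 change 0.75, SE 0.14, adjusted p = 0.00937), and the difference on day 4 was 0.32 (adjusted p = 0.146). The day 1 call was lost without day 1 wound replicate 2 or intact skin replicate 2. Wnt2 had 6.06 and 6.20 in intact skin, 5.95 and 6.10 in day 1 wounds, and 6.48 and 6.54 in day 4 wounds. It rose 1.3-fold on day 4 (log2 change 0.38, adjusted p = 0.025), a call that was lost without any 1 of the 4 arrays compared. Its difference of 0.485 between the days (adjusted p = 0.0564) passed with the robust prior and without the dimmest 30% of genes.

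Of the 19 ligands, 7 were thus lower and 1 higher on day 1, and 4 were lower and 1 higher on day 4. Calls in either direction made up 42.1% of the ligands on day 1, against 29.3% of all genes, and 26.3% on day 4, against 26.9%, so that the day 4 share was at the background. Under quantile normalization and under median centring 7 were lower on day 4. Over all genes the lower calls of that day also increased, from 2413 to 2913 and 3345 under these 2 settings. Without either intact array 3 were lower on day 1 and 2 on day 4. No ligand was higher by limma (0 of 19) on day 1 without day 1 wound replicate 2 or intact skin replicate 2, nor on day 4 without day 4 wound replicate 2 or either intact array. Without day 4 wound replicate 1, Wnt16 passed on day 4 (log2 change 0.51) and Wnt2 did not. The 9 ligands that passed in no comparison (Wnt1, Wnt2b, Wnt5b, Wnt7a, Wnt7b, Wnt8a, Wnt8b, Wnt9b and Wnt10a) had changes between -0.27 and 0.165 against intact skin. Of these, Wnt5b (-0.23 on day 1 and -0.225 on day 4) passed on both days under quantile normalization, on day 1 without the dimmest 30% of genes and on day 4 under median centring. Wnt10a, another hair follicle ligand, was at 8.65 to 8.72 on all 6 arrays, with a change of 0.00 on both days. Wnt1 lay under the lower quartile on all 6 arrays, where signal was not tested against background.

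**Figure D2:**
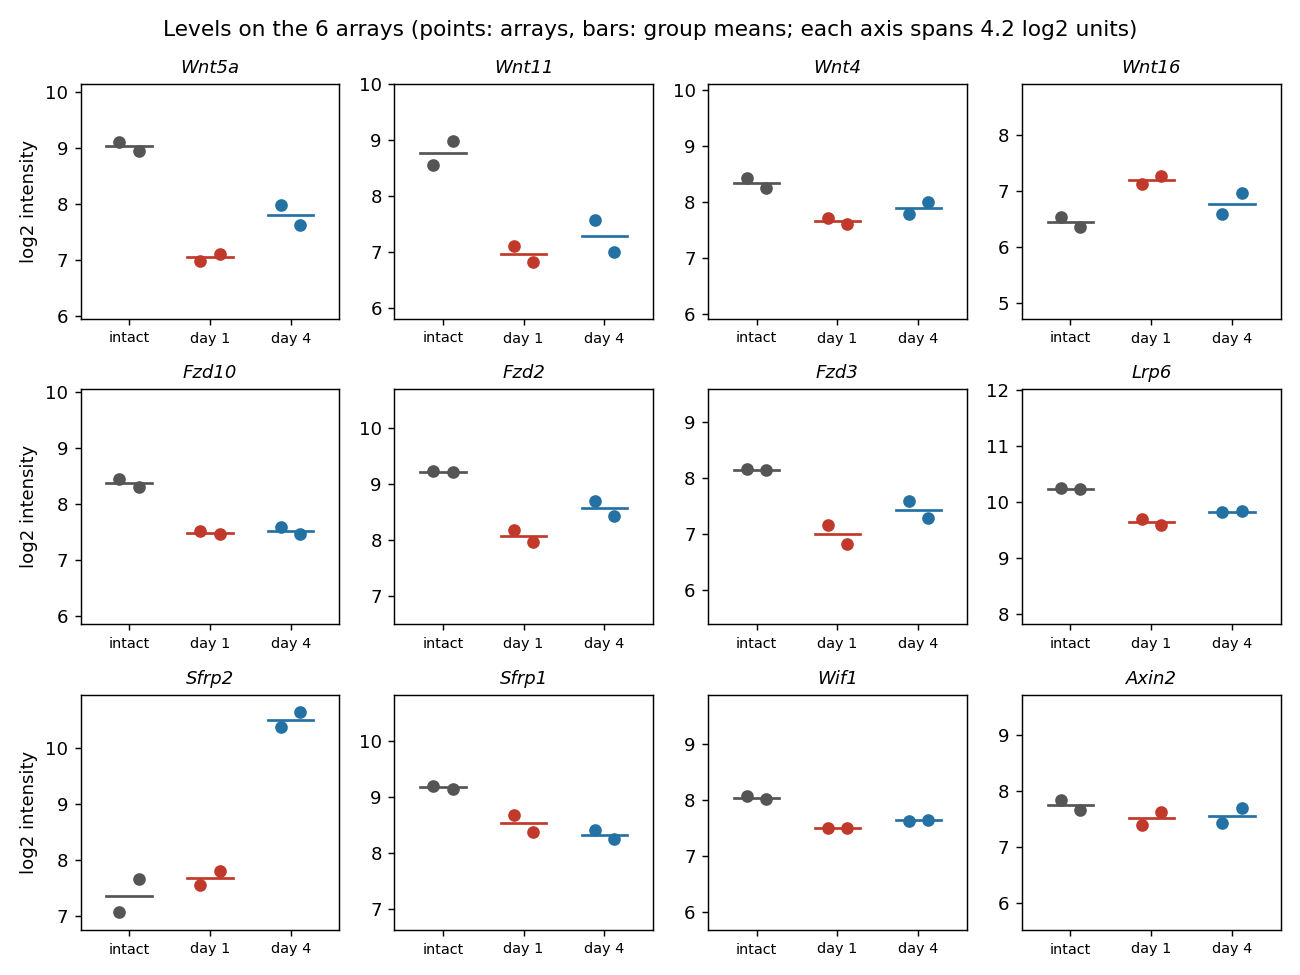
Points are the log2 intensities of the 12 named genes on the 6 arrays, grouped as intact skin and wounds of day 1 and day 4, with bars at the group means, and every panel spans the same number of log2 units. Wnt5a and Fzd2 are lowest on day 1, Fzd10 and Sfrp1 stay low on both days, and Sfrp2 stands above 10 only on the day 4 arrays.

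Counting every gene of each role, the receptors fell as a larger share of their number than the ligands did. Frizzled proteins are membrane receptors with an extracellular cysteine-rich domain that holds the ligand. On each day 6 of the 10 were lower and 0 higher by limma, namely Fzd1, Fzd2, Fzd3, Fzd5, Fzd7 and Fzd10. Over all genes, 14.6% were lower and 14.7% higher on day 1, and 12.1% and 14.8% on day 4. At an unadjusted p under 0.05, 7 receptors were lower and 1 higher on day 1 and 6 lower and 1 higher on day 4. By that measure 4369 of all 19938 genes were lower and 3744 higher on day 1, and 3942 and 3959 on day 4. The difference between receptors and ligands in these shares was not tested. Removal of the dimmest 30% of genes left 14 of the 19 ligands and all 10 receptors. The ligands removed had passed in no comparison, so they lower the ligand share. After this removal the 7 ligands called lower on day 1 kept that call and Wnt5b joined them, among 14 left. The receptors stayed at 6 of 10, so the shares of lower calls on day 1 were then close. The ligand medians were then -0.325 on day 1 and -0.27 on day 4, against -0.87 and -0.685 for the receptors. The median log2 change of the receptors was -0.87 on day 1 and -0.685 on day 4, against -0.04 and -0.03 over all genes.

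Fzd10 had log2 intensities of 8.44 and 8.31 in intact skin, 7.51 and 7.46 in day 1 wounds, and 7.58 and 7.47 in day 4 wounds. The 4 wound values were close together and clear of both intact ones. It was 1.85-fold lower on day 1 (log2 change -0.89, SE 0.08, adjusted p = 7.34e-04) and 1.80-fold lower on day 4 (adjusted p = 0.0012). Fzd2 had 9.22 and 9.21 in intact skin, 8.18 and 7.96 in day 1 wounds, and 8.70 and 8.42 in day 4 wounds. Its fall was 2.21-fold on day 1 (adjusted p = 0.00107) and 1.57-fold on day 4 (adjusted p = 0.0104), and the day 4 arrays lay between the other groups, although the difference between the days did not pass (log2 change 0.49, adjusted p = 0.10). Fzd3, a receptor of the planar polarity branch, had 8.15 and 8.14 in intact skin, 7.16 and 6.81 in day 1 wounds, and 7.58 and 7.28 in day 4 wounds. It was 2.23-fold lower on day 1 (adjusted p = 0.00204) and 1.64-fold lower on day 4 (adjusted p = 0.0147).

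Fzd1 and Fzd7 are close relatives of Fzd2. Fzd1 had 9.91 and 9.96 in intact skin, 8.96 and 8.57 in day 1 wounds, and 9.34 and 8.95 in day 4 wounds, and it was 2.25-fold lower on day 1 (adjusted p = 0.00348) and 1.73-fold lower on day 4 (adjusted p = 0.0174). Fzd7 had 9.78 and 9.84 in intact skin, 9.08 and 8.84 in day 1 wounds, and 9.08 and 9.05 in day 4 wounds, and it was 1.80-fold lower on day 1 (adjusted p = 0.00142) and 1.68-fold lower on day 4 (adjusted p = 0.00303). For both, no wound array reached an intact one. Fzd5 had 8.48 and 8.72 in intact skin, 7.49 and 7.17 in day 1 wounds, and 7.93 and 7.33 in day 4 wounds. Its day 1 fall was the largest among the receptors at 2.41-fold (log2 change -1.27, SE 0.21, adjusted p = 0.00602), followed by a 1.96-fold lower level on day 4 (adjusted p = 0.0189), and the day 4 pair was the most widely spaced of the receptors.

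The day 1 falls of Fzd1, Fzd2, Fzd3, Fzd7 and Fzd10 held without any 1 array, and that of Fzd5 reached an adjusted p of 0.0502 without intact skin replicate 2. On day 4, 2 receptors were lower without either intact array and 3 without day 4 wound replicate 2. Those of Fzd7 and Fzd10 held without any 1 array, while Fzd1, Fzd2, Fzd3 and Fzd5 lost the call without either intact array and all but Fzd2 also without day 4 wound replicate 2. Fzd6, the receptor that orients hairs in mouse skin, had 9.86 and 9.96 in intact skin, 9.54 and 9.09 in day 1 wounds, and 9.80 and 9.38 in day 4 wounds, with a day 1 change of -0.595 that did not pass (adjusted p = 0.0569). It passed with the robust prior and in a fit of these 2 groups alone. Fzd9 was higher on all 4 wound arrays, at 7.13 and 7.12 in day 1 wounds and 7.20 and 7.07 in day 4 wounds against 6.93 and 6.79 in intact skin. Its changes of 0.265 (adjusted p = 0.0635) and 0.275 (adjusted p = 0.0598) missed the threshold. They passed on both days under cyclic loess and without the dimmest 30% of genes. Fzd4 and Fzd8 had changes between -0.14 and 0.135 against intact skin and did not pass.

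Wound replicate 2 was lower than wound replicate 1 for 9 of the 10 receptors on day 1 and 8 of 10 on day 4, as it was for the hair list. The same order held for 8 and 11 of the 19 ligands, and for 8741 and 8319 of all 19938 genes. The receptor median relative to intact skin was -0.797 and -0.942 on the day 1 arrays and -0.54 and -0.777 on the day 4 arrays, while the hair list stood at -2.90 and -6.19 on day 1 and at -1.53 and -5.74 on day 4. Both the receptor median and the hair list were below intact skin on every wound array, and the part of the hair genes in the receptor falls was not tested.

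Of the co-receptors, Lrp6 fell and Lrp5 did not pass. Lrp6 had log2 intensities of 10.24 and 10.23 in intact skin, 9.70 and 9.58 in day 1 wounds, and 9.81 and 9.83 in day 4 wounds. It was 1.51-fold lower on day 1 (log2 change -0.595, SE 0.08, adjusted p = 0.00217) and 1.33-fold lower on day 4 (adjusted p = 0.0102), with the day 4 call lost without either intact array. Lrp5, its closest relative, lay between 9.62 and 9.71 on all 6 arrays, with changes of -0.04 on day 1 (adjusted p = 0.723) and -0.005 on day 4 (adjusted p = 0.971).

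The secreted antagonists did not move together, and calls in both directions were also seen over all genes. Of the 10 antagonists, 1 was higher and 2 were lower on day 1, and 2 were higher and 2 lower on day 4. Over all genes, 14.7% were higher and 14.6% lower on day 1, and 14.8% and 12.1% on day 4. The difference between antagonists and all genes in these shares was not tested. Sfrp2, which carries a Frizzled-like cysteine-rich domain and is made by dermal fibroblasts among other cells, had log2 intensities of 7.06 and 7.65 in intact skin, 7.54 and 7.80 in day 1 wounds, and 10.37 and 10.63 in day 4 wounds. Intact and day 1 arrays overlapped, and both day 4 arrays stood far above them. It was 8.85-fold higher on day 4 than in intact skin (log2 change 3.15, SE 0.21, adjusted p = 3.35e-04) and 7.11-fold higher on day 4 than on day 1 (log2 change 2.83, SE 0.21, adjusted p = 0.00901). Between the days it ranked 2 among the rises of all 19938 genes, and against intact skin it ranked 57. The change on day 1 was 0.315 (adjusted p = 0.301). The rise over intact skin held without any 1 array, and the rise over day 1 was lost without day 1 wound replicate 2 or day 4 wound replicate 1 (adjusted p of up to 0.0744). Most fibroblast markers were higher as well: 8 of 12 passed upward and 1 downward on day 4, and 6 upward and 1 downward on day 1, where 14.8% and 14.7% of all genes were higher on these days. The list had median changes of 0.65 on day 4 and 0.39 on day 1, and 1 of the 12 rose between the days. The list averaged 10.68 and 10.80 in day 4 wounds, 10.24 and 10.62 in day 1 wounds and 9.98 and 10.08 in intact skin, and its part in the Sfrp2 rise was not tested.

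Sfrp1, a close relative of Sfrp2, went the opposite way. It had 9.20 and 9.14 in intact skin, 8.67 and 8.38 in day 1 wounds, and 8.40 and 8.25 in day 4 wounds, and was 1.56-fold lower on day 1 (adjusted p = 0.00767) and 1.80-fold lower on day 4 (log2 change -0.845, SE 0.12, adjusted p = 0.00345). The day 4 fall held without any 1 array, and the day 1 call was lost without intact skin replicate 1. Wif1, which binds Wnt ligands directly, had 8.08 and 8.02 in intact skin, 7.5 on both day 1 arrays, and 7.64 and 7.66 in day 4 wounds. It was 1.46-fold lower on day 1 (adjusted p = 0.00217) and 1.32-fold lower on day 4 (adjusted p = 0.00874), and the day 4 call was lost without intact skin replicate 1.

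Sfrp5 was higher on day 1, at 7.06 and 7.17 in day 1 wounds against 6.60 and 6.52 in intact skin, a 1.47-fold rise (adjusted p = 0.01) that was lost without day 1 wound replicate 2 or either intact array. Dkk3, a divergent Dickkopf protein, stood at 8.04 on both day 4 arrays against 7.80 and 7.75 in intact skin. Its 1.20-fold rise passed at an adjusted p of 0.0346 and was lost without any 1 array, under quantile normalization and median centring, and in a fit of these 2 groups alone. Sfrp4, Frzb, Dkk1, Dkk2 and Dkk4 passed in no comparison. Of these, Sfrp4 had the largest difference, 0.395 on day 4 (7.44 and 7.93 in day 4 wounds against 7.23 and 7.35 in intact skin, adjusted p = 0.115). Dkk1, the inhibitor of Lrp6, lay between 6.18 and 6.32 on all 6 arrays.

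Set side by side, the median log2 change of the ligands was -0.23 on day 1 and -0.195 on day 4, and that of the antagonists -0.04 and -0.058, with -0.04 and -0.03 over all genes. The ligand median was thus lower than the antagonist median by 0.19 on day 1 and by 0.138 on day 4, as a difference of log2 changes (-0.19 and -0.138). Array by array the difference was -0.18 and -0.24 on day 1 and -0.047 and -0.267 on day 4, and it was small on day 4 wound replicate 1. It had the same sign on all 4 wound arrays, but each is set against the same 2 intact arrays, so these are not 4 independent results. On day 4 the SD between the arrays (0.156) was larger than the difference itself. Without the dimmest 30% of genes, which left 14 ligands and 8 antagonists, the difference was -0.315 on day 1 and -0.355 on day 4, and the day 4 antagonist median was 0.085. Between the days the difference of the medians was 0.13, and -0.038 without day 4 wound replicate 1. The antagonist median turned to 0.034 on day 1 and 0.02 on day 4 under cyclic loess, whereas the ligand and receptor medians stayed below 0 on both days under quantile normalization, cyclic loess and median centring. The medians pass over the largest single difference, since Sfrp2 was the member with the greatest rise and Wnt5a the one with the greatest fall. These are descriptions, and no test was run on the difference between the groups.

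**Figure D3:**
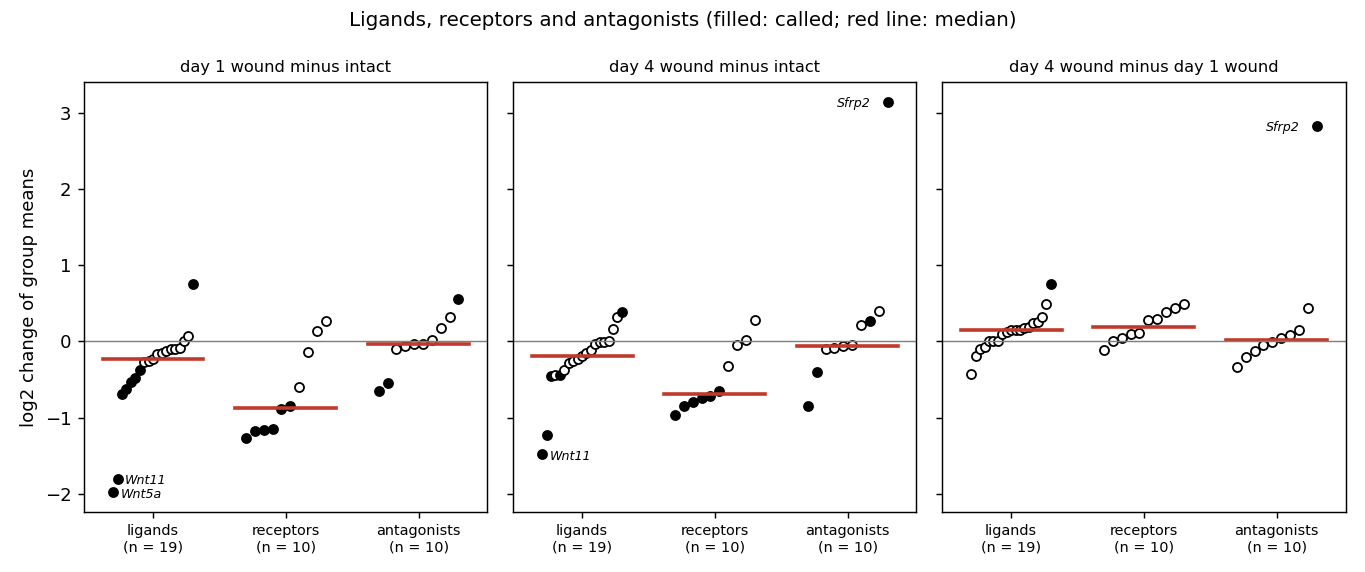
Each point is a gene and its height is the log2 change of group means, for day 1 wounds minus intact skin, day 4 wounds minus intact skin and day 4 wounds minus day 1 wounds (filled where limma called it, red lines for medians). The receptor medians lie at -0.87 and -0.685, those of the antagonists at -0.04 and -0.058, and Sfrp2 stands alone at the top on day 4.

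Among the R-spondins, which act through Lgr4, Lgr5 and Lgr6, Rspo4 was lower on both days. It had log2 intensities of 7.21 and 6.83 in intact skin, 6.50 and 6.47 in day 1 wounds, and 6.47 and 6.44 in day 4 wounds. The falls were 1.45-fold on day 1 (adjusted p = 0.0219) and 1.48-fold on day 4 (adjusted p = 0.0204), and each was lost without intact skin replicate 1 or either wound array of that day. Rspo1, Rspo2 and Rspo3 had changes between -0.375 and -0.005 and did not pass, and Rspo2 lay under the lower quartile on 4 arrays. Axin2, a scaffold of the beta-catenin destruction complex and a direct target of canonical signalling, had 7.84 and 7.66 in intact skin, 7.39 and 7.62 in day 1 wounds, and 7.42 and 7.69 in day 4 wounds. Its changes of -0.245 on day 1 (adjusted p = 0.212) and -0.195 on day 4 (adjusted p = 0.312) were of the size of the spread between replicates. Fzd10os had changes of -0.455 (adjusted p = 0.0681) and -0.40 (adjusted p = 0.102), beside the falls of its neighbour Fzd10, and passed on day 4 in a fit of these 2 groups alone.

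Other genes of the pathway were taken from a list of 72, of which 71 were measured. On day 1, 34 were lower (47.9%) and 5 higher (7.04%) than in intact skin, against 14.6% and 14.7% of all genes. On day 4, 30 were lower (42.3%) and 6 higher (8.45%), against 12.1% and 14.8% of all genes. The largest falls among those named were in the nuclear and feedback groups. Lef1, the transcription factor through which beta-catenin acts in the hair matrix, had log2 intensities of 9.57 and 9.50 in intact skin, 7.29 and 6.79 in day 1 wounds, and 7.46 and 6.79 in day 4 wounds. It was 5.64-fold lower on day 1 (adjusted p = 8.25e-04) and 5.31-fold lower on day 4 (adjusted p = 0.0013), with replicate 2 the lower array on both days. Of the 11 nuclear genes measured, 8 were lower on day 1 and 7 on day 4 and 0 were higher by limma, including the TCF member Tcf7l1 (log2 change -0.75 on day 1), the beta-catenin partner Bcl9 (-0.51) and the co-repressor Tle3 (-0.52 on day 1 and -0.595 on day 4). The day 1 call of Tcf7l1 was lost without day 1 wound replicate 2 and that of Bcl9 without intact skin replicate 2.

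Feedback genes and other known targets held calls in both directions. Of 12 genes, 3 were lower and 3 higher on day 1, against 14.6% and 14.7% of all genes, and 3 were lower and 5 higher on day 4, against 12.1% and 14.8%. The Dishevelled-binding inhibitors Nkd2 and Nkd1 fell, Nkd2 by 4.81-fold on day 1 (adjusted p = 2.03e-04) and 3.68-fold on day 4 (adjusted p = 5.80e-04), and Nkd1 by a log2 change of -0.945 on day 1 and -0.705 on day 4. The hyaluronan receptor Cd44 rose 1.93-fold on day 1 (adjusted p = 3.73e-04) and 1.53-fold on day 4, the transcription factor Myc rose 1.61-fold on day 1 (adjusted p = 0.00165), and the matricellular gene Ccn5 rose 1.53-fold on day 4 (adjusted p = 0.00428). The remaining calls, named after their values were seen, were Bambi, a pseudoreceptor of TGF-beta signalling that was 5.80-fold lower on day 1 and 4.42-fold lower on day 4, the rise of Twist1 on both days (log2 change 0.465 and 0.52), and on day 4 those of Ccn4 (0.39) and Myc (0.30). The day 4 call of Myc (adjusted p = 0.0386) was lost under cyclic loess, median centring and a fit of these 2 groups alone, and held without 1 array alone, day 4 wound replicate 1. The calls of Twist1 and Ccn4 were lost without intact skin replicate 1 and other single arrays, and the day 4 call of Bambi without either intact array. Markers of monocytes and macrophages (9 of 9 higher on both days) moved in the same biopsies, and their part in these rises was not tested.

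In the groups that handle the ligand, the receptor and the signal in the cell, 0 genes were higher by limma on either day. Over all genes, 14.6% were lower and 14.7% higher on day 1, and 12.1% and 14.8% on day 4. Of 3 secretion genes, 2 fell on day 1 and 1 on day 4: Notum, an enzyme that removes the lipid from Wnt proteins, by -0.89 and -0.69 on the 2 days, and Wls, which carries Wnt proteins to the surface, by -0.635 on day 1. On day 4 Wls had a change of -0.24 (adjusted p = 0.0784). Of 5 genes of receptor turnover and R-spondin receptors, 3 were lower on day 1 and 4 on day 4. The ubiquitin ligases Znrf3 and Rnf43, which remove Frizzled receptors from the membrane, changed by -0.80 and -0.79 on day 1, the R-spondin receptor Lgr4 by -1.045, and the stem cell receptor Lgr5 by -1.27 on day 4 (adjusted p = 0.0336). The Lgr4 call was lost without day 1 wound replicate 2 or either intact array. The Lgr5 call was lost without day 4 wound replicate 2 or either intact array (adjusted p of up to 0.16) and under the robust prior. Those wound arrays were the ones poorest in hair transcript, whose part was not tested. Of 7 other inhibitors 3 fell on day 1 and 2 on day 4. Apcdd1, a membrane inhibitor of the hair follicle, had 9.99 and 9.94 in intact skin, 9.06 and 8.97 in day 1 wounds, and 9.42 and 9.49 in day 4 wounds, and Sostdc1, a secreted inhibitor, was lower by -1.48 on day 1 and -0.755 on day 4, where the call was lost without day 4 wound replicate 2 or either intact array. Of 15 intracellular genes 6 fell on day 1 and 4 on day 4, among them the kinase gene Csnk1e (-1.055 on day 1 and -0.92 on day 4).

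In the planar polarity and calcium branch, 7 of 12 genes were lower on each day, against 14.6% of all genes on day 1 and 12.1% on day 4. Nfatc1, a calcium-responsive transcription factor named after its values were seen, was higher on both days (0.60 and 0.535), as were 14.7% of all genes on day 1 and 14.8% on day 4. The day 1 call of Nfatc1 was lost without any of the 4 arrays compared. Its day 4 call held without 1 array alone, day 4 wound replicate 1, and was lost in a fit of these 2 groups alone. Vangl2, a core membrane protein of planar polarity, was 2.51-fold lower on day 1 (adjusted p = 0.00134) and 2.03-fold lower on day 4 (adjusted p = 0.00443). Prickle1 and Celsr1, of the same core, changed by -1.17 and -1.19 on day 1 and by -0.805 and -0.845 on day 4, where both calls were lost without either intact array and that of Celsr1 also without day 4 wound replicate 2. Of 6 other co-receptors, 2 were lower on each day and 1 was higher on day 1. Ror2 and Ptk7 fell on day 1 (-0.675 and -0.655), while Ror1 rose (0.525, adjusted p = 0.0289). The call of Ror1 was lost without day 1 wound replicate 2 or either intact array, and that of Ror2 without intact skin replicate 1.

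**Figure D4:**
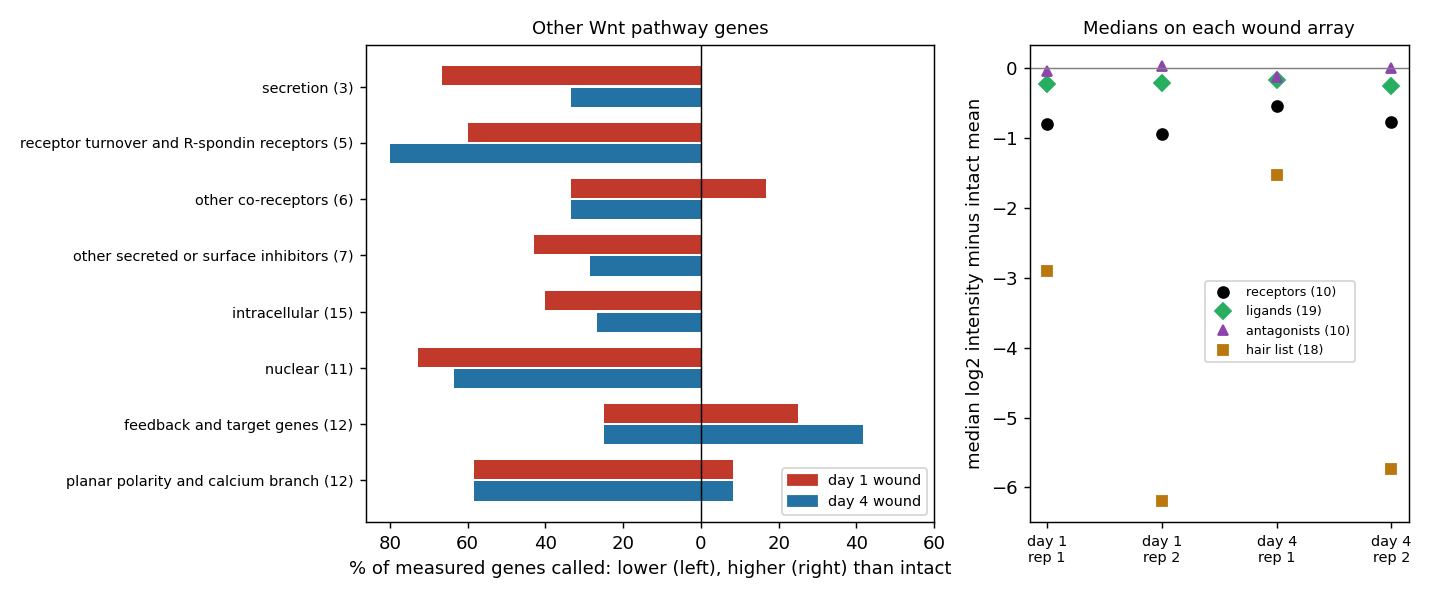
The left panel gives, for each group of other pathway genes, the percentage of measured genes that limma called lower (bars to the left) or higher (bars to the right) than in intact skin on day 1 and day 4. The right panel gives the median log2 intensity relative to the intact mean on each wound array: receptors lie between -0.942 and -0.54, ligands between -0.26 and -0.17, antagonists between -0.123 and 0.025, and the hair list between -6.19 and -1.53, lowest on both replicate 2 arrays.

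Other cell type markers moved in these biopsies as follows, where 14.6% of all genes were lower and 14.7% higher on day 1. On day 4 these shares were 12.1% and 14.8%. Among hair genes 12 of 18 were lower on day 1 and 6 on day 4, and among melanocyte markers 6 of 6 on day 1 and 4 of 6 on day 4. All 8 neutrophil markers were higher on both days. Of 9 endothelial markers 7 rose on day 1 and 8 on day 4, of 9 skeletal muscle markers 8 and 4, of 8 basal keratinocyte markers 4 and 4 with 1 lower each day, and of 7 smooth muscle and pericyte markers 3 and 5. Of 8 adipocyte markers 2 fell on each day, and of 8 dermal papilla markers 3 rose and 2 fell on day 1 and 2 rose and 2 fell on day 4. The part of these lists in the changes of the Wnt genes was not tested.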

How the data were processed

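The authors deposited one log2 intensity for each probe set, computed with RMA per the submitters' processing notes. RMA corrects background, equalises the distributions and summarises probes, and it can compress differences of dim probes. The sources used here name no version. Of 35556 probe sets, 21789 carried 1 symbol in the array annotation, 1621 with several symbols were not used, and 12146 had none there. The brightest probe set of each gene gave 19938 genes. Symbols matched a RefSeq table of GRCm38.p6 by gene identifier for 21698 probe sets, and 0 changed.

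All 6 arrays entered 1 limma fit with group means (limma 3.58.1, R 4.3.3, default eBayes, 3 residual and 3.4 prior degrees of freedom), tested two-sided, with Benjamini-Hochberg adjustment over all genes and a threshold of 0.05. The procedure was tested on simulated data for day 1 wounds against intact skin. It called 72 of 100 genes with a true log2 change of size 1 and 96 of 100 with size 2, with 6 false calls. True changes can thus be missed, and a gene that did not pass is not shown to be unchanged. The alternatives were quantile normalization, cyclic loess, median centring, a trended prior, a robust prior, the 2 groups alone, removal of the dimmest 30% of genes, the mean of probe sets, a replicate block and leaving out each array. Every member could be named, and of the other pathway genes up to 4 per group and comparison with the smallest p. The members and lists were chosen with earlier results of these data known, so they give no independent evidence. Of the marker lists, Krt81, Krt83 and Krt85, and of the pathway list Tcf7, were not matched and not analysed here. Promoter windows came from a RefSeq table. Protein sequences were not used here. Precision is limited by having 2 arrays a group.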

Additional observations from a re-analysis of the deposited data

Results flagged for a closer look

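Changes of 3 genes differed between the days by limma's test of day 4 against day 1 wounds, which share the intact arrays as their baseline. The genes screened were the 47 members and the 71 other pathway genes. Calls made up 4.26% of the members and 1.41% of the other pathway genes, against 2.23% of all genes. Sfrp2 differed by 2.83 on the log2 scale (adjusted p = 0.00901) and was higher on both day 4 arrays than on both day 1 arrays. Wnt5a differed by 0.75 (adjusted p = 0.0496) and Apcdd1 by 0.44 (adjusted p = 0.0473), again with both day 4 arrays above both day 1 arrays. That order held for 5098 of all 19938 genes. It comes from the same values as the calls and adds no support to them. The call of Apcdd1 was lost when any 1 array was left out, as that of Wnt5a was for 5 of the 6. The Apcdd1 call was also lost under cyclic loess, median centring and the fit of the wound arrays alone. With 2 arrays a group, no single array could be assessed as an outlier.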

How the results depend on the processing

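No called member changed direction in a comparison where the main fit or the alternative run called it (0 reversed). Small changes without a call did change sign, such as that of Fzd10 between the days (-0.015 to 0.095 when 1 array was left out). Leaving out 1 array gave 11 to 17 lower and 0 to 2 higher members on day 1, 5 to 16 lower and 1 to 3 higher on day 4, and 0 to 2 higher on day 4 than on day 1. The member higher on day 4 than on day 1 numbered 1 under quantile normalization, cyclic loess, median centring and the fit of 2 groups, since Wnt5a lost its call, and 3 under the robust prior and without the dimmest 30% of genes. Ligands lower on day 4 numbered 7 under quantile normalization and median centring, against 4. All genes lower on day 4 numbered 2913 and 3345 under these settings, against 2413. Over all genes, the fit of the wound arrays alone called 8 higher and 9 lower on day 4 than on day 1, against 217 and 227. The difference of ligand and antagonist medians ranged from -0.265 to -0.17 on day 1, from -0.268 to -0.048 on day 4 and from -0.038 to 0.175 between the days when 1 array was left out, and -0.038, the single reversal, came without day 4 wound replicate 1. It was -0.235 on day 1 under quantile normalization, and -0.315 on day 1 and -0.355 on day 4 without the dimmest 30% of genes, which removed 5 ligands and 2 antagonists. The cause of the other shifts was not tested. Deviations of same-numbered arrays correlated over genes at 0.0139 and 0.0227 between intact skin and the wounds of day 1 and day 4, and at 0.6853 between the wounds of both days. With 2 numbers this does not establish a pairing. With the replicate number as a block, 19 members were lower and 2 higher on day 1, 15 lower and 4 higher on day 4, and 3 higher on day 4 than on day 1. The block added the calls of Fzd6 on day 1, Fzd10os on both days, Fzd9 on day 4 and Wnt2 between the days, and Apcdd1 lost its call between the days. Wnt1 lay under the lower quartile on 6 arrays and Rspo2 on 4, and their signal over background was not measured.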
